A study of Mus musculus with 6 samples.

Results

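Marker genes of glia, neural progenitors and vascular cells were followed in RNA-seq of depolarized mouse cortical neuron cultures. The 32 genes were taken by symbol from lists of cell type markers, under a rule that names no measured value: 9 for astrocytes, 9 for radial glia and progenitors, 6 for the oligodendrocyte lineage, 5 for microglia and 3 for vascular cells. All 32 were found among the 43432 genes of the deposited tables, of which 22515 had a count in any library. The cultures were made from cortex of wild-type (WT) C57BL/6 embryos at E16.5, male and female pooled, and were kept in vitro for 7 days. Every group, the control included, was silenced overnight with 1 μM tetrodotoxin (TTX), which blocks sodium channels, and 100 μM DL-AP5, which blocks NMDA receptors. The 2 h and 6 h groups were then depolarized with 55 mM KCl, and the 0 h group was harvested without it. Each group had 2 replicates, described by the study as biological, so both libraries are given for each value and p-values measure the spread between these samples. A value after ± is the SE of a log2 change from the fit of all 6 libraries. No step against dividing or glial cells is given in the sources used here, and the labelled cell type is cortical neurons. Immunostaining in the study, of protein and not RNA, showed mostly the neuronal marker Tuj1 and little of the glial marker GFAP. The authors took this as a sign of high neuronal purity.

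These markers come from cells with distinct work in the cortex. Astrocytes clear glutamate and potassium from around synapses, and radial glia are the stem cells of the embryonic cortex, held in that state in part by Notch signaling through RBPJ and the HES repressors. Oligodendrocyte progenitors carry the receptors for platelet-derived growth factor and the proteoglycan NG2, and mature into myelinating cells under the control of OLIG2 and SOX10. Microglia and endothelial cells arise outside the neural lineage.

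Libraries held between 25959298 and 28573067 expected counts and between 18767 and 19212 genes with a count. The neuronal markers were high throughout, with 12 neuronal genes summing to between 5844 and 6404 TPM (transcript abundance corrected for length and scaled to a fixed total). Tubb3, the tubulin stained as Tuj1, had 1639 and 1679 TPM at 0 h and fell at 6 h by 1.01 ± 0.14 on the log2 scale (SE, DESeq2 adjusted p = 1.37e-12), while Map2, a dendritic microtubule protein, was at 1063 and 985 TPM at 0 h and stood 0.42 ± 0.16 higher at 6 h (adjusted p = 0.0192). Tubb3 was the single neuronal gene called lower, and the call was lost without 6 h replicate 1 (-0.90) and with GC correction, alone or with the replicate block (-0.87 in both). By the adjusted p, 7 of the 12 were higher and 2 lower at 6 h, or 58.3% and 16.7% beside 23.7% and 21.7% of all genes. Nefl, a neurofilament, and Gad1 and Gad2, the enzymes of GABA synthesis, named after their values were seen, were called higher (1.52 ± 0.10, 1.41 ± 0.11 and 1.36 ± 0.17). The 2 h replicates differed most from each other, with an SD over 12290 genes of 0.437 for the log2 ratio of the replicates, against 0.263 at 0 h and 0.218 at 6 h, and across 12221 of these genes that ratio followed GC content (Spearman rho = -0.735, across genes, which are not independent). In such bulk samples, fewer cells of a type and less RNA per cell cannot be told apart.

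Among the 32 markers, those of radial glia and astrocytes had the highest levels at 0 h, with sums of 4143 and 4181 TPM and of 1159 and 1245 TPM beside 6404 and 6270 TPM for the 12 neuronal genes. Fabp7, the brain fatty acid binding protein of radial glia and young astrocytes, had 3861 and 3869 TPM at 0 h, more than any of the 12 neuronal genes, and lay at the 99.9th percentile of genes with a TPM above 0. It made up 92.9% of the summed TPM of its class. The next highest members were Glul, the glutamine synthetase of astrocytes, with 323 and 338 TPM, Slc1a3, the glutamate transporter GLAST, with 306 and 323 TPM, and Aldoc, the brain aldolase, with 245 and 274 TPM. The nearest libraries of Glul and Slc1a3 were 323.3 and 322.8 TPM, closer than the replicates of either gene, so their order is not resolved. Vim, the intermediate filament vimentin of radial glia and many other non-neuronal cells, followed with 209 and 230 TPM, on an effective length of only 781 to 886 bases over the 6 libraries, on which its TPM depends.

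Below these came 3 astrocyte genes with levels too close to order, Aldh1l1 (77.4 and 89.1 TPM), Slc1a2 (80.6 and 81.5 TPM) and Gja1 (80.4 and 79.9 TPM). Pdgfra, the receptor that marks oligodendrocyte progenitors, had 46.9 and 53.2 TPM and was the highest gene of its class. Nes, the intermediate filament nestin of neural stem cells, had 30.9 and 37.0 TPM, overlapping Olig1, a lineage transcription factor, with 29.5 and 32.9 TPM. Gfap, the astrocyte filament, had only 18.8 and 30.9 TPM, and Aqp4, the water channel of astrocyte endfeet, had 24.8 and 23.2 TPM. S100b, a calcium-binding protein of mature astrocytes, was the lowest astrocyte gene at 2.75 and 4.81 TPM. The factors of the lineages were also modest. Olig2 had 20.1 and 20.6 TPM and Sox10 5.92 and 8.38, Sox2 had 15.3 and 17.1, Pax6 9.65 and 11.3, and Sox9 6.20 and 7.67. Of the Notch targets, Hes5 had 7.99 and 6.37 TPM and Hes1 1.93 and 1.92. Eomes, with 0.65 and 0.54 TPM, was the lowest progenitor gene, and Cspg4, with 2.23 and 2.98 TPM, the lowest of the oligodendrocyte lineage. The microglial and vascular classes had the lowest sums, with no gene above 4 TPM at 0 h. Their highest members were Aif1, the microglial protein IBA1, with 1.41 and 3.64 TPM, and Pdgfrb, the receptor of pericytes and other mural cells, with 1.75 and 2.00 TPM. Cldn5, the tight junction protein that defines endothelial cells, had 0, 3, 0, 0, 0 and 1 counts over the 6 libraries, all at or under the 3 counts taken as the floor.

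**Figure D1:**
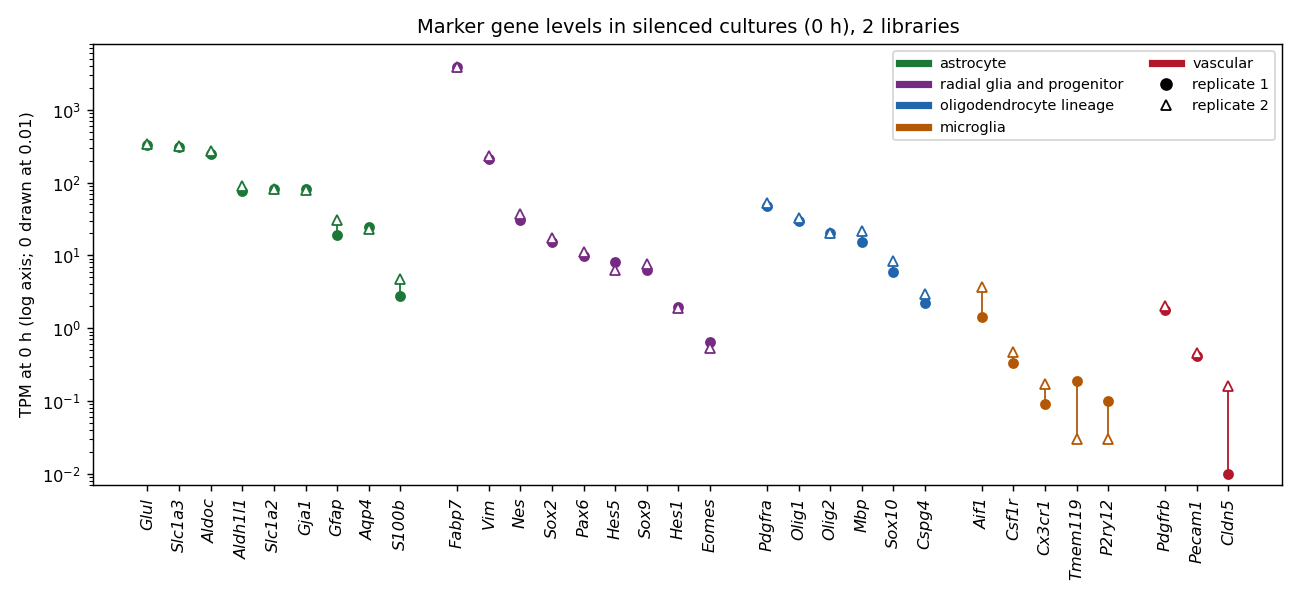
TPM of each of the 32 marker genes in both 0 h libraries on a log axis, ordered by level within each class, with circles for replicate 1 and triangles for replicate 2. Fabp7 stands above all others at 3861 and 3869 TPM, while the 5 microglial genes lie below 4 TPM and Cldn5, drawn at 0.01 where its TPM was 0, is the lowest vascular gene.

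The first question was which of these markers moved with depolarization. A gene was called when its DESeq2 adjusted p was at most 0.05 and it changed by more than 1 on the log2 scale, as in the methods of the study. At 2 h against 0 h, 2 members were called higher (Hes1 and Pecam1) and 1 lower (Sox10), 6.67% and 3.33% of the 30 members with an adjusted p, where 3.62% of all genes tested were called higher and 5.94% lower. At 6 h against 0 h, 4 were called higher (Vim, Nes, P2ry12 and Pecam1) and 2 lower (Hes5 and Pdgfrb), 12.9% and 6.45% of 31 members, against 9.1% and 10.2% of all genes. Between 2 h and 6 h, 2 were called higher (Sox10 and P2ry12) and 1 lower (Hes5), 6.67% and 3.33% of 30 members, against 10.1% and 8.02% of all genes.

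By the adjusted p alone, 4 members were higher and 2 lower at 2 h, where 12.3% and 14.2% of all genes were. At 6 h against 0 h the counts were 7 higher and 8 lower, where 23.7% of all genes were higher and 21.7% lower. From 2 h to 6 h they were 6 higher and 5 lower, against 24.1% and 21.2% of all genes. The shares of members lay on both sides of the background and within a few genes of it, so the counts are not a result about the markers as a set, and the account that follows is of single genes. The median log2 change of all genes tested was 0.02, 0.00 and -0.01 in the 3 comparisons.

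**Figure D2:**
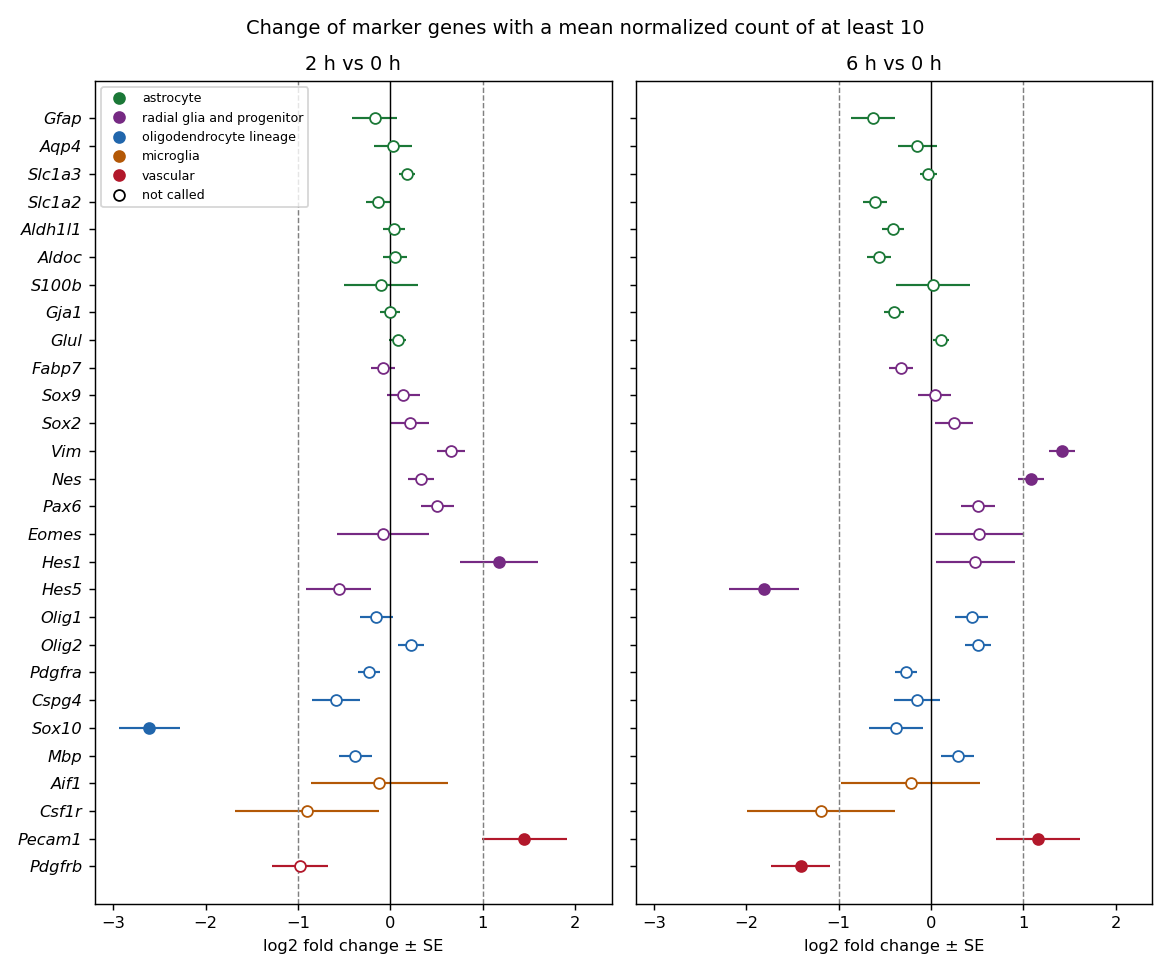
DESeq2 log2 fold change with its standard error at 2 h and at 6 h against 0 h for members averaging 10 or more normalized counts, colored by class, with filled points for called genes and dashed lines at a change of 1. Sox10 at 2 h lies farthest to the left at -2.61, and at 6 h the astrocyte genes sit at or left of 0 with none past a dashed line, apart from Glul at 0.11 and S100b at 0.02.

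Astrocyte genes changed by less than the fold threshold. None of the 9 was called in any comparison by DESeq2 or by edgeR, with 0, 5 and 5 members at an unadjusted p under 0.05 at 2 h, at 6 h and between them. By DESeq2, 3.62% to 10.2% of all genes were called in each direction, so 0 of 9 is within 2 genes of the background. At 6 h, however, 5 of 9 were lower than at 0 h by the adjusted p alone, or 55.6% where 21.7% of all genes were, and the median of the class was -0.40 at 6 h, after 0.03 at 2 h. Slc1a2, the transporter GLT-1 that clears most synaptic glutamate, had normalized counts of 11216 and 11063 at 0 h, then 11137 and 9195 at 2 h, and 7572 and 7066 at 6 h. Both 6 h libraries lay below the other 4, a decrease of 34.3% from 0 h (log2 change -0.61 ± 0.13, SE, DESeq2 adjusted p = 2.07e-05), whereas the 2 h libraries overlapped those at 0 h (-0.13 ± 0.13, adjusted p = 0.537). Aldoc had a like course, with 5941 and 6495 at 0 h, then 6000 and 6865 at 2 h, and 4391 and 4045 at 6 h. Its 6 h libraries were again the lowest, 32.2% below 0 h (-0.56 ± 0.13, adjusted p = 4.44e-05). Slc1a2 and Aldoc were lower at 6 h by the adjusted p in each of the 14 alternative fits.

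The other 3 rested on fewer fits. Aldh1l1, a folate enzyme used as a general astrocyte marker, went from 3124 and 3545 at 0 h to 2525 and 2501 at 6 h (-0.41 ± 0.12, adjusted p = 0.00259). Gja1, the gap junction protein connexin 43, went from 3197 and 3139 to 2465 and 2336 (-0.40 ± 0.11, adjusted p = 0.00166). Gfap had 626 and 1014 at 0 h, then 745 and 714 at 2 h, and 549 and 511 at 6 h, so the spread of its 0 h replicates was wider than the step from the lower of them to 6 h (-0.63 ± 0.24, adjusted p = 0.0216). Without 0 h replicate 2, and likewise without either 6 h replicate, only Slc1a2 and Aldoc passed the adjusted p, 2 of 9 genes. Gfap alone, without 0 h replicate 2, changed by -0.24 (adjusted p = 0.48), and it lost its adjusted p in 5 of the 6 fits that left out a library, the exception being without 0 h replicate 1 (-0.93).

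The remaining 4 astrocyte genes did not pass the adjusted p in any comparison. Glul had 10409 and 10424 at 0 h, then 10973 and 11069 at 2 h, and 11196 and 11360 at 6 h, a step of 0.11 ± 0.09 at 6 h (adjusted p = 0.281). Slc1a3 ranged from 16303 to 19365 over the 6 libraries, with its highest values in both 2 h libraries (0.18 ± 0.09, adjusted p = 0.148) and a 6 h change of -0.03 ± 0.09. Slc1a3 clears glutamate as Slc1a2 does and Glul converts it to glutamine, and the difference of either from Slc1a2 was not tested. Aqp4 stood at 1683 and 1557 at 0 h and 1478 and 1440 at 6 h (-0.15 ± 0.21), with its 2 h replicates far apart at 1998 and 1300. S100b had 46.2 to 79.2 normalized counts and a 6 h difference of 0.02 ± 0.40. An exon of Glul overlaps Teddm2 on the opposite strand, and the span of S100b, though no exon, overlaps Dip2a. The strand setting of the counting is not given, so reads of such pairs may not be told apart, which holds also for exons of Slc7a10, Dll1, Gpr17 and Nefl.

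A further 13 astrocyte genes, of which 12 had an adjusted p, were examined beside them. At 6 h against 0 h, 1 was higher and 3 were lower by the adjusted p alone, or 8.33% and 25% beside 23.7% and 21.7% of all genes, so the lower count is near the background. Between 2 h and 6 h, 8 of 12 were lower and 1 higher by the adjusted p, beside 21.2% and 24.1% of all genes, and 1 was called in each direction, beside 8.02% lower and 10.1% higher. Slc7a10, an astrocyte carrier of serine and other small amino acids, went from 72.9 and 109 at 2 h to 37.4 and 38.7 at 6 h and fell by 1.25 ± 0.39 (adjusted p = 0.00427), a call lost without 2 h replicate 2 (adjusted p = 0.17), 6 h replicate 1 (0.0842) or 6 h replicate 2 (0.0761). Id3, an inhibitor of basic helix-loop-helix factors, had 44.4 and 59.0 at 0 h, then 24.0 and 28.9 at 2 h, and 77.0 and 92.5 at 6 h, and rose between 2 h and 6 h by 1.68 ± 0.41 (adjusted p = 1.67e-04).

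Of the 9 radial glial and progenitor genes, 1 was called higher and 0 lower at 2 h, or 11.1% and 0% beside 3.62% and 5.94% of all genes, and 2 higher and 1 lower at 6 h, or 22.2% and 11.1% beside 9.1% and 10.2%. These counts are within 2 genes of the background. The filaments Vim and Nes rose and the Notch target Hes5 fell at 6 h, while Fabp7, Sox2 and Sox9 stayed within a log2 change of 0.35. Vim (chr2:13573927-13582826, GRCm38) had 2317 and 2748 normalized counts at 0 h, then 3665 and 4337 at 2 h, and 6717 and 6873 at 6 h. Each time point lay wholly above the one before. The rise was 0.66 ± 0.15 at 2 h (adjusted p = 5.74e-05, below the fold threshold) and 1.42 ± 0.14 at 6 h, or 2.68-fold (adjusted p = 2.89e-21), and the 6 h call stood in all 14 alternatives, at 1.18 to 1.55. Nes (chr3:87971078-87980451) had 2552 and 3030 at 0 h, then 3238 and 3765 at 2 h, and 5929 and 5862 at 6 h. The 6 h libraries were far above the others, a rise of 1.08 ± 0.14 or 2.11-fold (adjusted p = 3.54e-13), after 0.33 ± 0.14 at 2 h (adjusted p = 0.0734). Nes sat close to the fold threshold, and it was at 0.96 without 0 h replicate 1 and at 0.83 with library totals as scaling, both with an adjusted p under 0.05.

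Hes5 (chr4:154960923-154962371), a repressor of neuronal genes switched on by Notch in radial glia, moved the other way. It had 110.1 and 86.0 normalized counts at 0 h, then 63.9 and 69.3 at 2 h, and 25.7 and 30.1 at 6 h. The 3 time points did not overlap. The fall was 1.81 ± 0.38 on the log2 scale at 6 h, a decrease of 71.5% (change of -1.81, adjusted p = 9.13e-06), called in all 14 alternatives (-2.06 to -1.62), whereas the step at 2 h was -0.56 ± 0.35 (adjusted p = 0.256). Between 2 h and 6 h it fell by 1.25 ± 0.39 (adjusted p = 0.00377), a call lost without 2 h replicate 2 (adjusted p = 0.0696), without 6 h replicate 1 (0.103) and without 6 h replicate 2 (0.0527). Its relative Hes1 (chr16:30064384-30067796), which answers to several pathways besides Notch, had 31.96 and 31.2 at 0 h, then 86.9 and 55.8 at 2 h, and 46.0 and 42.0 at 6 h. Both 2 h libraries were the highest, and Hes1 was called at 2 h (1.18 ± 0.42, adjusted p = 0.0233) but not at 6 h (0.48 ± 0.43, adjusted p = 0.39). The call was lost in 9 of 14 alternatives, among them the fits without 0 h replicate 1 (adjusted p = 0.24), 0 h replicate 2 (0.259), 2 h replicate 1 (0.371), 6 h replicate 1 (0.102) and 6 h replicate 2 (0.0999).

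The sequence before the start site is shown for the 3 progenitor genes called at 6 h that have a promoter window in RefSeq (GRCm38.p6), since Vim and Nes rose together and Hes5 fell. Each is the 250 bases upstream, 5′ to 3′ on the strand of the gene, which is the plus strand for all 3, at chr4:154960673-154960922 for Hes5, chr2:13574061-13574310 for Vim and chr3:87970843-87971092 for Nes. Capitals mark matches, on either strand, to the letters of the RBPJ motif GTGGGAA, the N-box CACNAG that HES repressors bind, and the SOX motif ACAANG.
Hes5: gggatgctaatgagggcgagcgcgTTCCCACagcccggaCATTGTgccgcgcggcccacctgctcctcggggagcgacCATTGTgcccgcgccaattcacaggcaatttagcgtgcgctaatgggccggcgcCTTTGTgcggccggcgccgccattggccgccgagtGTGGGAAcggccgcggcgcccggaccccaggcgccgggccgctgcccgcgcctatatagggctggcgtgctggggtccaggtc
Vim: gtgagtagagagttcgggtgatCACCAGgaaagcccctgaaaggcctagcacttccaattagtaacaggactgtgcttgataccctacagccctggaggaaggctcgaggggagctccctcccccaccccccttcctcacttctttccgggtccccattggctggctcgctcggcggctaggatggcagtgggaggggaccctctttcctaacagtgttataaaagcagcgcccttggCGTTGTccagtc
Nes: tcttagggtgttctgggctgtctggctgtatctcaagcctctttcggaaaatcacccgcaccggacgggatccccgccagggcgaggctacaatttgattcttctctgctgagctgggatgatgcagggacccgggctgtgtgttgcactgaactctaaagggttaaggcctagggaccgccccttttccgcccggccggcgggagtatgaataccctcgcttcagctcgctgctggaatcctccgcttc

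The Hes5 window held 2 RBPJ matches, which begin 226 bases before the start site on the minus strand and 83 bases before it on the plus strand, and 3 SOX matches. The Vim window held 1 N-box and 1 SOX match, and the Nes window none of the 3 motifs. Of 32851 RefSeq windows of 300 bases, 6.38% held the RBPJ letters, 42.5% the N-box and 41.2% the SOX letters. Among the 22 members with a window used, 2 held the RBPJ letters (Hes5 and Aldoc), 12 the N-box and 10 the SOX letters. Members on chromosome 18 (Aqp4, Mbp, Csf1r and Pdgfrb) were left out of this search. The calcium and cAMP response element TGACGTCA was in 1 member window (Pax6) and the AP-1 site TGANTCA in 1 (Gja1), against 1.79% and 7.81% of all windows. These motifs can overlap in sequence, and a match of letters is a description and not a site in use.

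**Figure D3:**
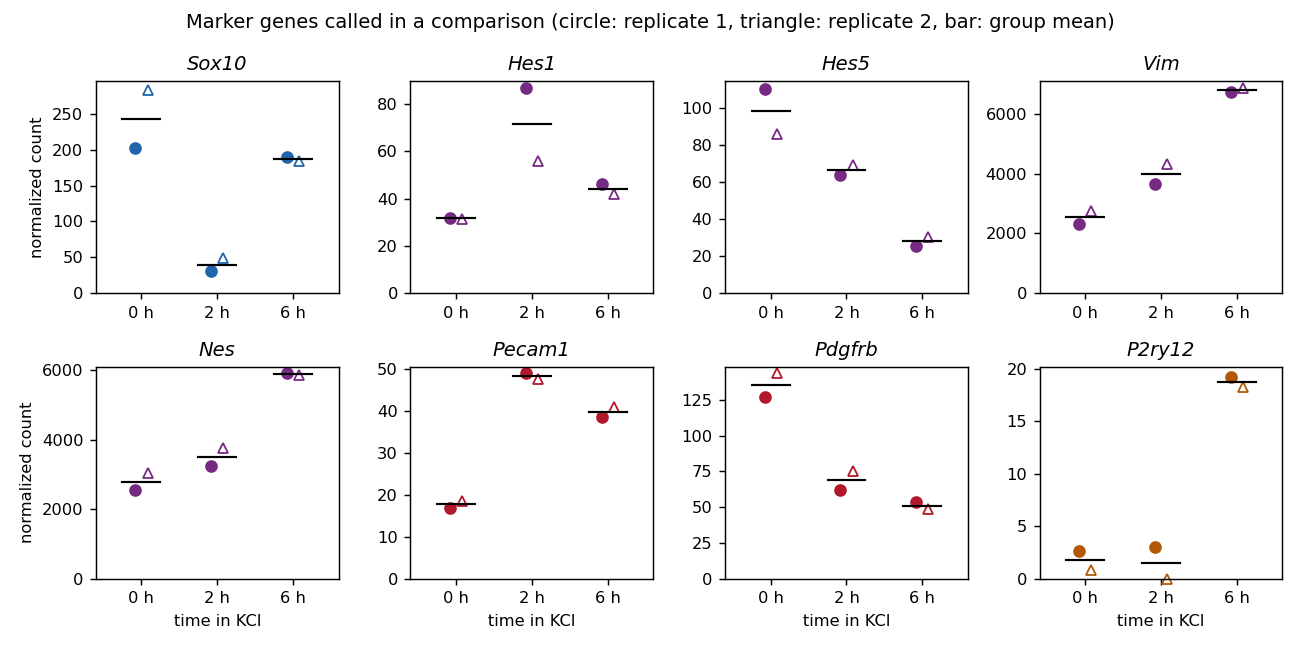
Normalized counts of the 8 members called in any comparison, per library and time on linear axes from 0, with circles for replicate 1, triangles for replicate 2 and bars for group means. Vim and Nes climb to 6 h, Hes5 and Pdgfrb descend, Sox10 dips to 31.0 and 48.6 at 2 h, and P2ry12 stays below 20 counts in every library.

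Outside the HES genes, no transcription factor of the class was called. Sox2, which keeps neural stem cells undifferentiated, had 468 and 516 at 0 h and 603.5 and 562 at 6 h (0.25 ± 0.21, adjusted p = 0.35), and Sox9, a regulator of radial glia and astrocytes, had 337 and 413 at 0 h and 391 and 383 at 6 h (0.04 ± 0.18). Pax6, a regulator of dorsal radial glia, went from 260.1 and 311 at 0 h to 400.4 and 410.4 at 2 h and 416 and 398 at 6 h. It was higher by the adjusted p at 2 h (0.51 ± 0.18, adjusted p = 0.02) and at 6 h (0.51 ± 0.18, adjusted p = 0.0109), although its counts were not whole in 5 libraries, which RSEM gives where reads are shared with another gene. Its adjusted p at 2 h was over 0.05 in all 6 fits that left out a library, at 0.077 to 0.428, and at 6 h it was over 0.05 without 0 h replicate 1 (0.268), 0 h replicate 2 (0.0515), 6 h replicate 1 (0.197) or 6 h replicate 2 (0.132). Eomes, the factor TBR2 of intermediate progenitors, was scarce, with 23.6 to 43.0 normalized counts. Fabp7 ran from 27509 and 26698 at 0 h to 22378 and 20995 at 6 h (-0.32 ± 0.13, adjusted p = 0.031), and this difference lost its adjusted p without either 0 h or either 6 h replicate (0.146 to 0.297).

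Among 12 further radial glial and progenitor genes, 3 were higher and 1 lower by the adjusted p at 2 h, and the same numbers held at 6 h, or 25% and 8.33% beside 12.3% and 14.2% of all genes at 2 h and 23.7% and 21.7% at 6 h. With the fold threshold, 1 was called lower at 2 h, or 8.33% beside 5.94% of all genes. From 2 h to 6 h, 1 was called higher, or 8.33% beside 10.1%. At 6 h against 0 h, 0 were called, beside 9.1% higher and 10.2% lower.

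The Notch pathway was examined because Hes1 and Hes5 are its targets. Of 16 pathway genes, 1 was called higher and 2 lower at 2 h, or 6.25% and 12.5% beside 3.62% and 5.94% of all genes, and 2 higher and 3 lower at 6 h, or 12.5% and 18.8% beside 9.1% and 10.2%. These counts are within a gene or 2 of the background. Lfng, the glycosyltransferase that tunes the choice of ligand, had 219 and 286 at 0 h, then 77.9 and 112 at 2 h, and 274 and 289 at 6 h. The 2 h libraries were the lowest by a wide margin (-1.42 ± 0.27, adjusted p = 2.37e-06), and the level then rose by 1.57 ± 0.27 (adjusted p = 6.14e-08). Numb, an adaptor that antagonizes Notch in dividing progenitors and is also expressed in neurons, stood at 275 and 248 at 0 h, then 277 and 286 at 2 h, and 978 and 887 at 6 h, a rise of 1.84 ± 0.16 at 6 h (adjusted p = 1.28e-28). The receptor Notch3 had 459 and 574 at 2 h and 196 and 202 at 6 h, a fall of 1.38 ± 0.20 (adjusted p = 5.75e-11), and the ligand Jag2 fell by 1.35 ± 0.36 between 0 h and 6 h (adjusted p = 7.03e-04), with 163 and 193 at 0 h and 49.2 and 90.4 at 6 h. The call of Jag2 was lost without 0 h replicate 2 (adjusted p = 0.0549) and without 6 h replicate 1 (0.0611). The other called genes, outside the naming rule and named after their values were seen, were the coactivator Maml1, higher at 2 h and 6 h (1.14 ± 0.15 and 1.25 ± 0.15), and 2 Notch ligands. Dll1 was lower at 2 h (-1.12 ± 0.21) and, by 50.1%, at 6 h, and Dll3 was lower at 6 h (-1.15 ± 0.47). Dll1 sat near the fold threshold, at -0.95 at 2 h without 2 h replicate 1 and -0.97 at 6 h without 0 h replicate 2. Dll3 was not called whichever library was left out (adjusted p of 0.0603 to 0.333). Rbpj itself, the DNA-binding partner of Notch, was higher at 6 h by the adjusted p without reaching the fold threshold (0.91 ± 0.11, adjusted p = 5.64e-15).

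In the oligodendrocyte lineage a single member moved past the fold threshold, and it came back. That is 16.7% of the 6 members called lower at 2 h, beside 5.94% of all genes. From 2 h to 6 h, 16.7% were called higher, beside 10.1%. Both are within 1 gene of the background. Sox10 (chr15:79154908-79165240), the factor that drives oligodendrocyte differentiation, had 202 and 283 normalized counts at 0 h, then 31.0 and 48.6 at 2 h, and 190.5 and 184 at 6 h. The 2 h libraries lay far below the other 4, and the 6 h libraries lay just under the lower of those at 0 h. It fell at 2 h by 2.61 ± 0.33 on the log2 scale, a decrease of 83.7% (adjusted p = 4.87e-14), and rose from 2 h to 6 h by 2.24 ± 0.33, or 4.71-fold (adjusted p = 1.41e-10). At 6 h it differed from 0 h by -0.38 ± 0.29 (adjusted p = 0.306). The fall and the rise were called in all 14 alternatives, at -2.99 to -2.33 and at 1.95 to 2.61. Sox10 has a GC content of 61.8%, and the correction for GC content is among these alternatives.

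None of the other 5 lineage genes was called in any comparison by DESeq2 or edgeR. At 6 h against 0 h, 3 of the 6 had an unadjusted p under 0.05, 2 higher and 1 lower. By the adjusted p, 2 were higher and 0 lower, or 33.3% and 0% beside 23.7% and 21.7% of all genes, which is within 2 genes of the background. Olig2, the factor needed to specify the lineage, had 609.9 and 615 at 0 h, then 667 and 759.9 at 2 h, and 842 and 907 at 6 h, with each time point above the last. It was higher at 6 h by the adjusted p (0.51 ± 0.14, adjusted p = 0.00123), as was Olig1 (0.44 ± 0.18, adjusted p = 0.0292), which had 779 and 857 at 0 h, then 655 and 822 at 2 h, and 1019 and 1208 at 6 h. Neither difference kept its adjusted p without 0 h replicate 1 (0.0832 for Olig2 and 0.27 for Olig1), 0 h replicate 2 (0.0774 and 0.118) or 6 h replicate 2 (0.119 and 0.355), and Olig1 lost it without 6 h replicate 1 as well (0.0679). With library totals as scaling the differences were 0.27 for Olig2 and 0.20 for Olig1, neither past the adjusted p. Pdgfra had 4162 and 4672 at 0 h, then 3564 and 3986 at 2 h, and 3676 and 3652 at 6 h, with every later library below both at 0 h and an adjusted p just over the threshold (-0.27 ± 0.12, adjusted p = 0.0586). Cspg4, the proteoglycan NG2, had 245 and 324 at 0 h, then 164 and 214 at 2 h, and 234 and 279.6 at 6 h (-0.59 ± 0.26 at 2 h, adjusted p = 0.071). Mbp, myelin basic protein, went from 769 and 1007 at 0 h to 644 and 723 at 2 h and 1054 and 1113 at 6 h. From 2 h to 6 h it was higher by the adjusted p (0.67 ± 0.18, adjusted p = 7.66e-04), at 0.0571 without 6 h replicate 2.

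Of 10 further oligodendrocyte genes with a match, 1 was called lower at 2 h, or 11.1% of the 9 with an adjusted p beside 5.94% of all genes, and 1 higher and 2 lower at 6 h, or 10% and 20% beside 9.1% and 10.2%. Each count of called genes is within a gene of the background. By the adjusted p alone, 1 was higher and 4 were lower at 6 h, or 10% and 40% beside 23.7% and 21.7% of all genes. The median log2 change of the list at 6 h was -0.98, with scarce genes included. Gpr17, a receptor of progenitors that are about to differentiate, was, like Sox10, lowest at 2 h, with 696 and 1431 at 0 h, then 236 and 336 at 2 h, and 674 and 508 at 6 h. It fell by 1.90 ± 0.34 at 2 h (adjusted p = 5.69e-07) and rose by 1.05 ± 0.35 from 2 h to 6 h (adjusted p = 0.00701). The size of the fall of Gpr17 rests on the 0 h replicates, at -1.28 without 0 h replicate 2 and -2.32 without 0 h replicate 1, although it was called in all 14 alternatives. The later rise was not called without 2 h replicate 1 (adjusted p = 0.307), 2 h replicate 2 (0.0842) or 6 h replicate 1 (0.132). Ugt8a, the enzyme that makes the galactolipids of myelin, went from 98.5 and 103 at 0 h to 246 and 229 at 6 h and rose by 1.24 ± 0.26 (adjusted p = 1.48e-05), and with GC correction it was at 0.94 and not called. Mog, a late myelin protein and outside the naming rule, was among those called lower (-1.60 ± 0.47, adjusted p = 0.00205), but not without 0 h replicate 1 (adjusted p = 0.0621), 0 h replicate 2 (0.0766) or 6 h replicate 2 (0.124).

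**Figure D4:**
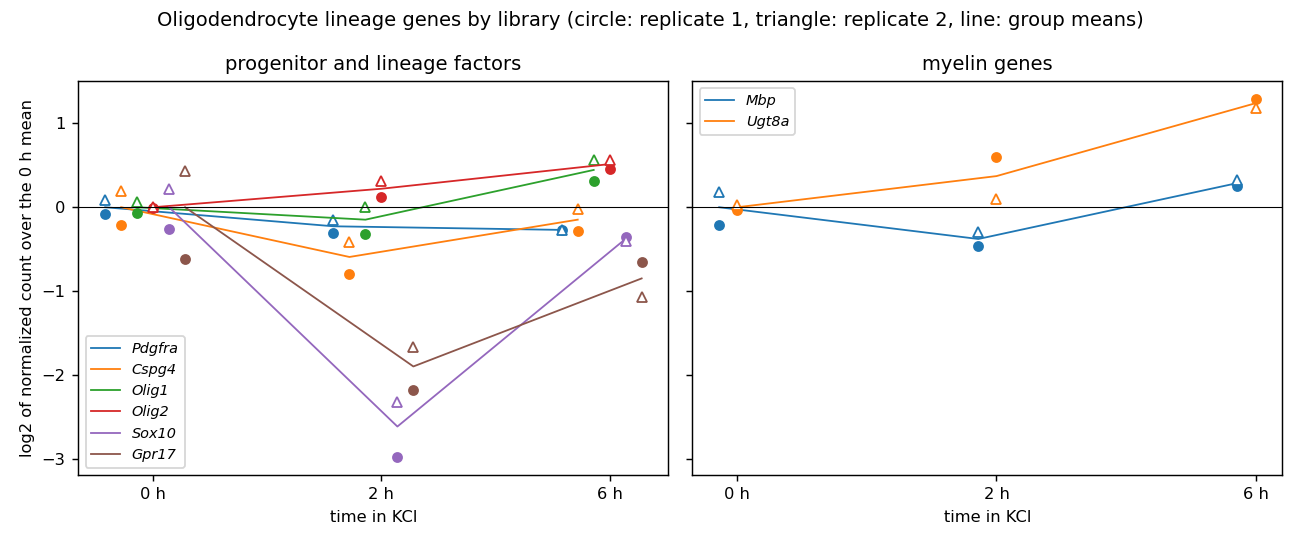
Log2 of the normalized count over the 0 h mean for progenitor and lineage genes (left) and myelin genes (right) by time of KCl, with circles for replicate 1, triangles for replicate 2 and lines through group means. Sox10 and Gpr17 drop at 2 h by 2.61 and 1.90 while Olig1, Olig2, Pdgfra and Cspg4 stay within 1, and at 6 h Ugt8a lies above the 0 h mean by 1.24.

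The 0 h replicates were not alike for this lineage. All 6 members were higher in 0 h replicate 2, with a median log2 ratio of 0.278, as were 4 of 4 further oligodendrocyte genes averaging 50 or more normalized counts. Of all 23 members at that count, 18 were higher in 0 h replicate 2, where 45.2% of all such genes were. For Gfap the ratio was 1.62, matched or passed by 0.431% of genes, and for Gpr17 it was 2.06, matched or passed by 0.163%. The log2 ratio of 0 h replicate 1 to 2 followed GC content across 12221 genes (Spearman rho = -0.393, across genes, which are not independent). GC-rich genes tended to be relatively higher in 0 h replicate 2, and the 6 members had GC contents of 48.1% (Pdgfra) to 61.8% (Sox10). The part of GC content in the replicate difference was not tested. The part of the replicate difference in the comparisons with 0 h was not tested beyond leaving out each library.

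Microglial genes had few counts in every library. Aif1 had 9.63 to 16.9 normalized counts, Csf1r, the receptor on which microglia depend, 5.99 to 23.6, Cx3cr1, the fractalkine receptor, 1.07 to 6.74, and Tmem119, a marker of resident microglia, 0 to 5.33. None of these 4 was called in any comparison by DESeq2, and none had an unadjusted p under 0.05. Of all genes, 3.62% to 10.2% were called in each direction, so 0 of 4 is near the background. By edgeR Aif1 and Csf1r were not called and the others fell under its count filter. An exon of Csf1r overlaps Hmgxb3 on the opposite strand. The member that was called was P2ry12, the ADP receptor of resting microglia, with 3, 1, 3, 0, 18 and 17 counts in the libraries from 0 h replicate 1 to 6 h replicate 2. Only the 6 h libraries held more than 3 counts. It was called at 6 h against 0 h (3.43 ± 1.26, adjusted p = 0.0163), and the ratio of the pooled counts, scaled for library size, was 10.9 (95% exact interval 3.88 to 42.0, covering counting error only). The call was lost without 0 h replicate 1 (adjusted p = 0.0808), and without 0 h replicate 2 or either 6 h replicate DESeq2 gave no adjusted p. P2ry12 (chr3:59216272-59262871) lies within Med12l, which is read from the other strand and had 681, 656.5, 824, 737, 475 and 552 normalized counts, the lowest 2 at 6 h.

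Of 11 further microglial genes, 0 were called at 6 h by DESeq2 or edgeR, and 1 had an unadjusted p under 0.05, where 9.1% of all genes were called higher and 10.2% lower. Cd68, a lysosomal protein of phagocytes that other cells also express, was the single one called at 2 h, or 10% of 10 beside 3.62% of all genes higher, with 19.5 and 38.8 at 0 h, then 61.9 and 85.8 at 2 h, and 57.8 and 41.9 at 6 h (1.34 ± 0.48, adjusted p = 0.0247). The call of Cd68 was lost without 0 h replicate 1 (adjusted p = 0.391), 2 h replicate 2 (0.25), 6 h replicate 1 (0.0835) or 6 h replicate 2 (0.0764).

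The vascular genes that were detected went in opposite directions. Pecam1 (chr11:106654217-106750628), an adhesion protein of endothelial and some blood cells, had 16.9 and 18.5 normalized counts at 0 h, then 48.9 and 47.6 at 2 h, and 38.5 and 40.9 at 6 h. Every depolarized library was well above both at 0 h, and the gene was called at 2 h (1.45 ± 0.46, adjusted p = 0.00829) and at 6 h (1.16 ± 0.46, adjusted p = 0.0291). Both calls were lost whichever library was left out, with adjusted p of 0.0656 to 0.207 at 2 h and 0.0991 to 0.236 at 6 h. Pdgfrb fell, with 127 and 143 at 0 h, then 61.9 and 75.5 at 2 h, and 53.5 and 48.4 at 6 h. Every depolarized library was well below both at 0 h, with a change of -0.98 ± 0.30 at 2 h (adjusted p = 0.00723), just short of the fold threshold, and of -1.41 ± 0.32 at 6 h, a decrease of 62.3% (adjusted p = 3.74e-05). The 6 h call stood in all 14 alternatives (-1.65 to -1.28). Cldn5, which defines endothelium, was at or under the floor in every library.

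Of 13 further vascular and mesenchymal genes, 1 was called higher at 2 h and 3 at 6 h, or 9.09% and 27.3% of the 11 with an adjusted p beside 3.62% and 9.1% of all genes, none of them with a mean normalized count of 50. Esam, an adhesion protein of endothelium and platelets, had 6.21 and 10.96 at 0 h, then 37.9 and 44.4 at 2 h, and 41.7 and 38.7 at 6 h, higher at both times (2.26 ± 0.56 and 2.22 ± 0.57). The others at 6 h were the pericyte gene Rgs5 (1.45 ± 0.63, adjusted p = 0.0481) and the collagen gene Col1a2 (1.73 ± 0.63, adjusted p = 0.0155), whose 6 h replicates stood at 27.8 and 66.7. Esam at 2 h lost its call without 0 h replicate 1 (adjusted p = 0.085). Rgs5 was not called whichever library was left out (adjusted p of 0.0984 to 0.336), and Col1a2 lost its call without 0 h replicate 1 (0.145), 0 h replicate 2 (0.108) or 6 h replicate 2 (0.445). These 3 are named after their values were seen. Cdh5, the cadherin that defines endothelium, had at most 1.08 normalized counts in any library.

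The classes were also summed. The astrocyte class had 1159 and 1245 TPM at 0 h, then 1070 and 1132 at 2 h, and 930 and 915 at 6 h, and the 6 h libraries lay below all others. In log2 terms the 6 h mean was 0.38 below 0 h (-0.38), and with normalized counts in place of TPM it was -0.21. The radial glial class, nearly all Fabp7, had 4143 and 4181 TPM at 0 h and 3464 and 3333 at 6 h (-0.29), and with normalized counts the sign turned (0.09). The oligodendrocyte class dipped at 2 h, with 120 and 140 TPM at 0 h, then 91.6 and 109 at 2 h, and 119 and 131 at 6 h. The vascular class, mostly Pdgfrb, had 2.16 and 2.61 TPM at 0 h, then 1.75 and 1.96 at 2 h, and 1.5 and 1.55 at 6 h, without overlap between the time points (-0.65 at 6 h, and -0.76 with normalized counts). The microglial class lay between 1.93 and 4.34 TPM, the highest value in 0 h replicate 2. These sums weigh each member by its level and were given no test. They did not always follow the largest member. Pdgfra, the largest of the oligodendrocyte class, averaged 50.05 TPM at 0 h, 37.7 at 2 h and 36.5 at 6 h.

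**Figure D5:**
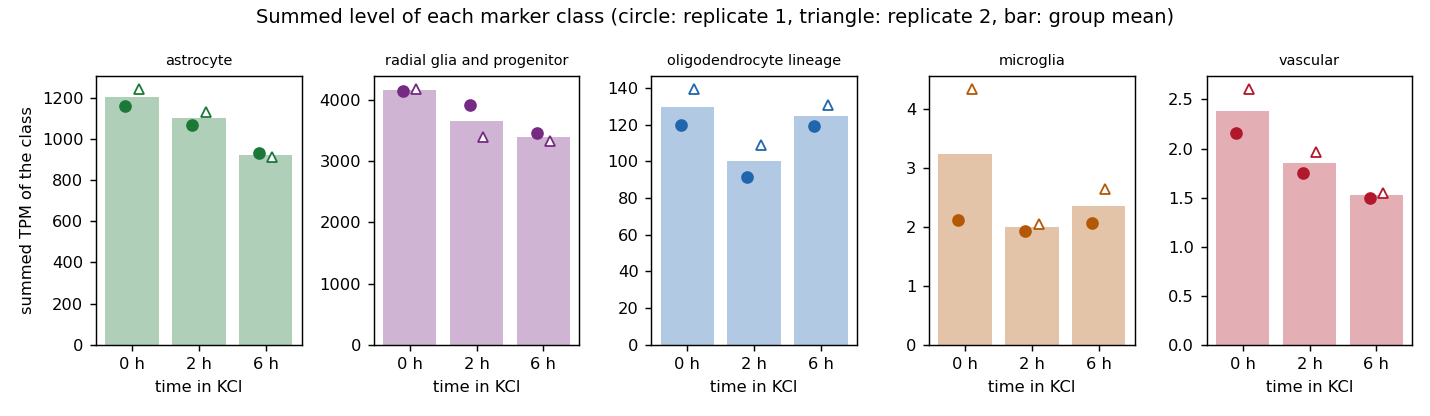
Summed TPM of each marker class per library and time of KCl, with circles for replicate 1, triangles for replicate 2 and bars for group means, each panel on its own axis from 0. The astrocyte sum runs from 1159 and 1245 TPM at 0 h to 930 and 915 at 6 h, and the oligodendrocyte sum is lowest at 2 h.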

How the data were processed

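Poly(A) RNA of 6 cultures was sequenced as stranded paired-end libraries. The authors trimmed reads with Trim Galore, and the submitters' processing notes name mm10, Bowtie2 2.2.9 and RSEM 1.3.0; the annotation release and the strand setting of RSEM are not given in the sources used here. The expected counts deposited by the authors are not normalized and may be fractional where genes share reads. The TPM deposited by the authors are scaled for length to a common total. Effective lengths, also deposited by the authors, are abundance-weighted means over transcripts, in bases.

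Identifiers were matched to symbols and to GENCODE M21 (GRCm38) positions for 42548 genes. Members matched 32 of 32, and context genes 87 of 88. Expected counts were rounded and tested for 22515 genes with DESeq2 1.42.0 in R 4.3.3: 1 fit of 6 libraries, group as the only term, median-of-ratios size factors, Wald test, unshrunken changes, Benjamini-Hochberg over genes kept by independent filtering. Normalized counts are counts over size factors. Errors of log2 changes are SE. Alternatives were the quasi-likelihood test of edgeR 4.0.16, other size factors, a count filter of 10, a replicate block, GC correction, leaving out each library, and, added after seeing the data, fits of only the libraries compared. P2ry12 ratios use exact conditional binomial intervals. Counts carry no molecular identifiers.

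All members were described. Context genes were named when called and averaging 50 or more normalized counts, at most 4 per list, and Tubb3 and Map2 as neuronal reference; some context genes that met this rule are not reported here. The members and lists were chosen with earlier results of these data known. Replicate numbers in the titles were not taken to pair cultures: replicate deviations correlated across genes at 0.25 (0 h and 2 h), -0.014 (0 h and 6 h) and 0.145 (2 h and 6 h).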

Additional observations from a re-analysis of the deposited data

How the results depend on the processing

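The calls of Sox10 at 2 h and from 2 h to 6 h, and of Vim, Hes5 and Pdgfrb at 6 h, stood under all 14 alternatives. The counts of called members are small and moved. At 2 h, 3 members were called, and 1 to 3 when a library was left out. The count called higher at 2 h was 2, and 1 with library totals, the replicate block, GC correction with the block, or only the libraries compared, and 0 to 1 without a library. The count called lower was 1, and 2 with library totals, GC correction or GC correction with the block, and 1 to 2 without a library, where Pdgfrb passed the fold threshold. At 6 h, 6 were called, and 3 to 5 without a library, of which higher 4 became 1 to 3, and 2 with library totals. From 2 h to 6 h, 3 became 1 to 3, higher 2 became 1 to 2 without a library and 1 under the count filter of 10, which drops P2ry12, and lower 1 became 0 to 1 without a library and 0 with GC correction and the block. Aqp4 at 2 h reversed, from 0.03 to -0.33 (adjusted p = 0.0263), without 2 h replicate 1, and stood at 0.29 without 2 h replicate 2. With the replicate block, Hes1 at 2 h (adjusted p = 0.0619) and Pecam1 at 6 h (0.0776) lost their calls and no other call of a member changed. Over genes averaging 10 or more normalized counts (14695 with library totals, 14668 otherwise), the median log2 change was -0.16 at 2 h and -0.25 at 6 h with library totals, against 0.01 and 0.00. Leaving out a library leaves 1 sample in a group, which is assumed to vary like the others. Summed normalized counts in place of TPM gave 0.06 and -0.21 for astrocytes and 0.04 and 0.09 for radial glia, at 2 h and 6 h, where TPM gave -0.13, -0.38, -0.19 and -0.29. The causes were not tested. Counts under about 20, as for P2ry12 and Pecam1 at 0 h, limit what depth can show.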
